A study of Mus musculus with 8 samples.

Results

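RNA polymerase I (Pol I) subunits and initiation factors were examined in C2C12 cells, a mouse myoblast line, in which the long non-coding RNA Pvt1 had been silenced. The 8 genes followed were Polr1a, Polr1b, Polr1c, Polr1d, Polr1e, Ubtf, Rrn3 and Ttf1, and every probe that the array design named for one of them was taken, giving 17 of the 56605 probes that were not controls. RNA came from proliferating cells at passage 10, all of 1 line, transfected by lipofection with antisense LNA GapmeRs, which recruit RNase H to cut their target RNA. The Pvt1-silenced group (4 arrays) received 2 GapmeRs against Pvt1, and the negative control group (4 arrays, labelled Mock) received negative control GapmeRs, so that both groups carried lipid reagent and an oligonucleotide. The labels call the 4 samples of a group biological replicates without saying how cultures were separated, so p-values measure the spread between these samples.

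Pol I transcribes the ribosomal RNA genes in the nucleolus, and its products become the 18S, 5.8S and 28S RNAs of the ribosome. The upstream binding factor UBF, encoded by Ubtf, occupies the gene together with the SL1 complex, and Rrn3 (TIF-IA) brings an initiation-competent polymerase to that promoter. Ttf1 binds terminator elements downstream of the gene. Growing cells such as cycling myoblasts need high Pol I activity, and Myc is among its known activators.

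The probes that carry the results are shown here, because several genes gave a different answer from probe to probe. All positions are on build mm9 as the array files give them, and each sequence is written 5′ to 3′ in the sense of the transcript. Both Polr1c probes and the Ttf1 probe are printed whole, since their genomic spans of 145, 183 and 4640 bases exceed the probe length of 60 and they therefore cross exon junctions.
Polr1c, transcript position 698: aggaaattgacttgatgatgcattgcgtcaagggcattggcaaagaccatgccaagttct
Polr1c, transcript position 994: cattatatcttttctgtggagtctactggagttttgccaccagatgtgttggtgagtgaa
Ttf1, transcript position 2175: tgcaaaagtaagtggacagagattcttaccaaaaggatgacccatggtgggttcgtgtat

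For the other genes the first 30 bases of each probe are given, which identify the probes set against each other below. Capitals mark a run of TG repeats in 1 Ubtf probe and the polyadenylation hexamer AATAAA in 1 Polr1d probe.
Ubtf, transcript position 2949: ggagtttgggggtgggagagagtcttaaag
Ubtf, transcript position 3511: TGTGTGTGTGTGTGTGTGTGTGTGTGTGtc
Polr1d variant 2, transcript position 428: agtgtcctcttgctggtacaAATAAAagat
Polr1d variant 2, transcript position 984: cctaccttacttggaagttcgtttcaaaac
Polr1e, upstream probe: taaataacttccaggttgacctgacagcgt
Polr1e, downstream probe: cagaactctgatcgacagtcaaagcggagg
Polr1b, transcript position 3536: gaggtgtcctgtataacacaagtgagggta

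The arrays were checked before any gene was read. Levels are log2 normalized signal throughout, differences are silenced minus control on that scale, and a probe is called when its adjusted p from limma, fitted over all 28649 testable probes, is under 0.05. The target itself fell: the brightest Pvt1 probe read 9.65, 9.79, 10.31 and 9.70 in controls 1 to 4 and 7.09, 6.69, 7.85 and 6.39 in silenced replicates 1 to 4 (change -2.86, SE 0.32, limma adjusted p 0.000682). Silenced replicate 4 was the dimmest array, with 51.6% of spots positive and significant against 58.8% to 62.5% elsewhere, and control replicate 3 had the lowest mean correlation with its own group, 0.964 against 0.978 to 0.983. Of 7 myoblast marker probes, 4 were well above background on all 8 arrays, those of Myod1, Des, Cdh15 and Chrna1, while Myf5 and Cav3 were not above it on any array. The summed myoblast signal (log2) was 16.49 to 16.64 in controls and 15.72 to 16.21 after silencing. By the brightest probe 3 of 5 tested myoblast markers were lower and 0 higher, beside 14.0% and 5.99% of all gene names. Their changes ran from -1.95 to 0.94. Liver genes moved as well: 1 of 15 liver marker probes was above background in controls and 10 were on at least 1 silenced array, and their summed signal was 9.88 to 10.80 against 12.42 to 12.73. Only 1 liver marker could be tested, and its change of -0.15 was not called. The liver markers Alb, Ttr and Mup1 were all at background in every control. Fga was at background on all 8 arrays. The part of these shifts in the results below was not tested.

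The calls for Pol I messages went 1 way, and not every gene or probe had one. Of the 17 probes, 15 could be tested, and 8 of them were lower and 0 higher, whereas among all tested probes 18.4% were lower and 4.79% higher. The higher share over all probes depended on the scaling and on 1 array: it was 18.9% with cyclic loess, 9.86% in the authors' table, 8.82% where dim spots were not masked and 13.0% when silenced replicate 4 was left out, and 0 of the Pol I probes were higher in any of them. At an unadjusted p under 0.05, limma gave 10 lower and 0 higher, beside 27.0% and 9.34% of all probes, and the methods' t-test gave 10 lower and 0 higher, beside 23.7% and 7.79%. All 15 changes were negative, with a median of -0.74, against a median of -0.19 and 61.5% negative changes over all tested probes. The 8 lower probes belonged to 7 of the 8 genes, each of Polr1a, Polr1b, Polr1d, Polr1e, Ubtf and Ttf1 having 1 and Polr1c having 2, and Rrn3 had none. In bulk RNA, fewer transcripts per cell and fewer cells that express a gene cannot be told apart. Of the 15 probes, 9 had every silenced value below every control value, a pattern seen in 23.1% of all probes with a value on each array. Of the 15, 0 had every silenced value above every control value, as 5.36% of all such probes did. The count of 8 stayed at 8 without silenced replicate 4 and without that array and control replicate 3 together, but was 5 without control replicate 3, and 3 without control replicate 2 or without control replicate 4. The share lower among all probes was 18.1% and 25.0% in the fits that kept 8, and 21.1%, 11.3% and 11.0% in the others.

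**Figure D1:**
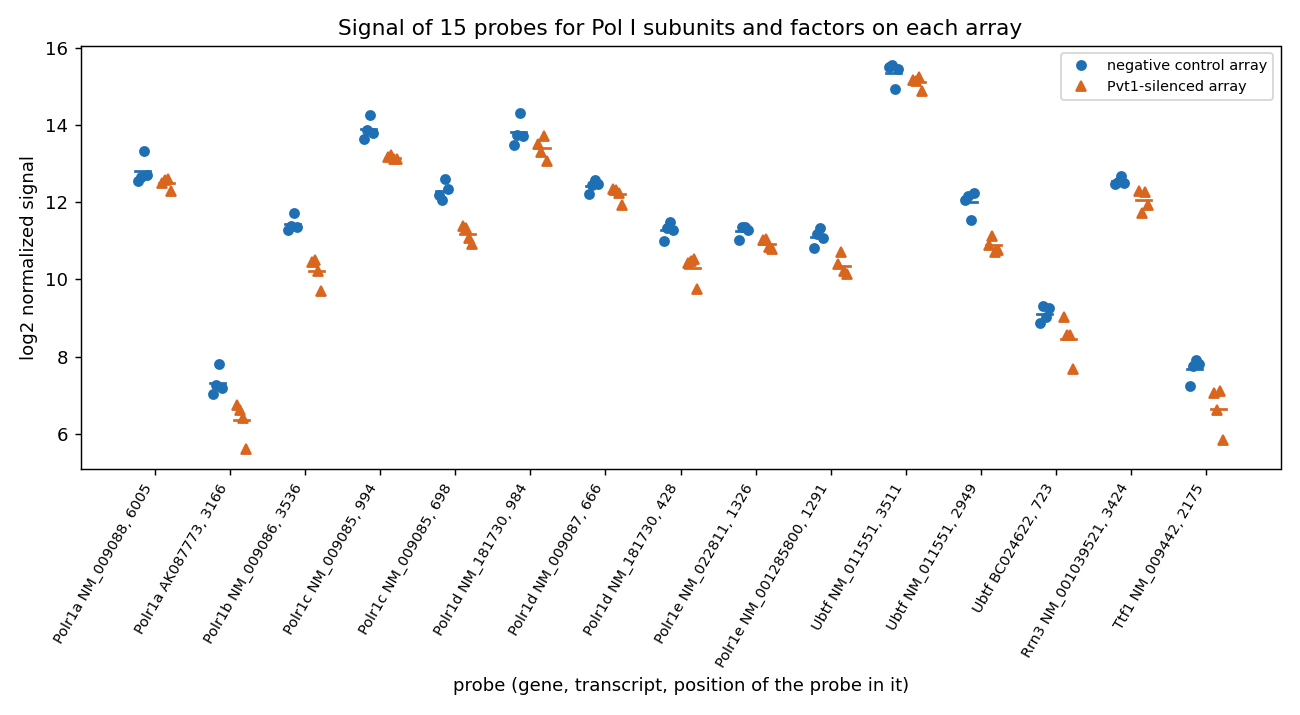
Log2 normalized signal (vertical axis) of the 15 tested probes, named by gene, transcript and position in the transcript (horizontal axis), on 4 negative control arrays (circles) and 4 Pvt1-silenced arrays (triangles), with bars at the group means. The groups lie apart for the probes of Polr1b, Polr1c, Rrn3 and Ttf1 and for 1 probe each of Polr1a, Polr1d, Polr1e and Ubtf.

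Taking each gene by its brightest probe gave fewer calls. By that reading 3 of 8 genes were lower (Polr1b, Polr1c and Ttf1) and 0 higher, beside 14.0% lower and 5.99% higher among 19360 gene names. The median change of the 8 genes was then -0.45, and all 8 changes were negative, while the median over all gene names was -0.09. Polr1a, Polr1d, Polr1e and Ubtf were called through another probe than the brightest.

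The large subunits form the catalytic centre of the enzyme. Polr1b encodes the second largest subunit, which builds the active site jointly with Polr1a. Its tested probe (chromosome 2, 128951870 to 128951929) read 11.27, 11.38, 11.73 and 11.36 in controls 1 to 4 and 10.44, 10.51, 10.21 and 9.70 in silenced replicates 1 to 4. All silenced arrays were below all controls, with replicate 4 the lowest. This was the largest change among the 15 probes, -1.22 (SE 0.23, limma adjusted p 0.00615), and the silenced mean was 43.0% of the control mean. A second Polr1b probe was positive on 1 control array only and was not tested.

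Polr1a encodes the largest subunit, and its probes disagreed. The probe in the RefSeq mRNA NM_009088 (chromosome 6, 71929251 to 71929310) read 12.55, 12.64, 13.32 and 12.70 in controls and 12.51, 12.58, 12.59 and 12.30 after silencing. Apart from the high control 3 these values lay together, and the groups overlapped (change -0.31, SE 0.22, limma adjusted p 0.354). With control replicate 3 and silenced replicate 4 both left out that change was -0.07. A dim probe 24358 bases upstream on the genome, designed on the cDNA clone AK087773, read 7.03, 7.26, 7.81 and 7.18 in controls and 6.75, 6.63, 6.40 and 5.60 in silenced cells. Here the groups did not overlap, silenced replicate 4 was the lowest and was not above background, and the change was -0.97 (SE 0.29, limma adjusted p 0.0393). Over 21 alternatives that change ran from -1.11 to -0.52, and the call was lost under 11 of them. The remaining Polr1a probe was not positive on any array.

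Polr1c and Polr1d encode the subunits that form the assembly platform of the enzyme and that Pol I shares with Pol III. Both Polr1c probes were lower. The probe at transcript position 698 (chromosome 17, 46381604 to 46381786, minus strand) read 12.19, 12.07, 12.59 and 12.34 in controls and 11.39, 11.33, 11.08 and 10.92 in silenced replicates. The gap between the groups was wider than the spread within either (change -1.12, SE 0.21, limma adjusted p 0.00521). At position 994 (46381120 to 46381264) the controls read 13.65, 13.86, 14.26 and 13.79 and the silenced arrays 13.16, 13.22, 13.11 and 13.12. The silenced values lay within a narrow band below all controls (change -0.74, SE 0.20, limma adjusted p 0.0239). The call was lost at this second probe under 8 of 21 alternatives, among them the slide row as a block.

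Polr1d had 3 tested probes on 2 transcript variants. On variant 2 (NM_181730), the probe at position 428 (chromosome 5, 147922229 to 147922288) read 10.99, 11.32, 11.49 and 11.27 in controls and 10.43, 10.49, 10.54 and 9.75 after silencing. The groups did not overlap, silenced replicate 4 stood below the other silenced arrays, and the change was -0.96 (SE 0.24, limma adjusted p 0.0170). It was the 1 Pol I probe of 17 to hold AATAAA or ATTAAA, as 13.4% of all probes did, and the median change of the tested probes with either hexamer was 0.17. The probe at position 984 of the same variant (147922785 to 147922844) changed by -0.41 (SE 0.24, limma adjusted p 0.256), with overlapping groups at 13.48 to 14.31 and 13.08 to 13.71. Over 21 alternatives that change ran from -0.52 to -0.13 and was not called. The value of -0.13 came without control replicate 3 and silenced replicate 4 together. The variant 1 probe (NM_009087, 147890429 to 147890488) gave 12.20 to 12.58 in controls and 11.92 to 12.34 after silencing and changed by -0.23 (limma adjusted p 0.439). Variant 1 therefore had no called probe, and whether the variants differ in change was not tested.

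Polr1e encodes a subunit specific to Pol I that takes part in initiation. Its upstream probe (chromosome 4, 45044310 to 45044369) read 10.82, 11.17, 11.32 and 11.08 in controls and 10.39, 10.72, 10.21 and 10.13 in silenced cells. Every silenced value was lower than every control, though silenced replicate 2 came near control 1 (change -0.74, SE 0.21, limma adjusted p 0.0326). The call was lost at this probe under 9 of 21 alternatives, among them the slide row as a block. The downstream probe (45044931 to 45044990) lay at 11.02 to 11.37 and 10.78 to 11.06 and its change of -0.33 was not called (SE 0.19, limma adjusted p 0.232).

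Among the factors, Ubtf showed the widest disagreement between probes of 1 transcript. At position 2949 of NM_011551 (chromosome 11, 102167557 to 102167616, minus strand) the controls read 12.05, 12.17, 11.53 and 12.25 and the silenced replicates 10.89, 11.12, 10.72 and 10.77. Control 3 was the lowest control here and was still above every silenced array, and the change was -1.12 (SE 0.22, limma adjusted p 0.00675), or 45.9% of the control level. At position 3511 (102166995 to 102167054) the controls read 15.49, 15.55, 14.94 and 15.44 and the silenced arrays 15.17, 15.14, 15.25 and 14.89. These groups overlapped and the change was -0.24 (SE 0.21, limma adjusted p 0.451). Over 21 alternatives it ran from -0.38 (without control replicate 3) to -0.05 (shift to the 75th percentile) and was not called.

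This last probe opens with 28 bases of TG repeat, as printed above. The array held 46 probes with 10 or more TG in a row, all of them testable, with a median level of 14.40 and a median change of -0.07. Of these 46, 0 were called by limma, beside 18.4% lower and 4.79% higher among all probes. By the methods' t-test 0 were called, beside 9.96% and 1.98%. At an unadjusted p under 0.05 limma gave 0, beside 27.0% and 9.34%, and the methods' t-test gave 0, beside 23.7% and 7.79%. Whether the repeat has a part in the flat reading of Ubtf at this position was not tested. The last Ubtf probe was designed on the cDNA clone BC024622 (102175202 to 102175261), which its annotation describes as having an apparent retained intron. It read 8.87, 9.30, 9.02 and 9.25 in controls and 9.03, 8.55, 8.56 and 7.68 after silencing. Silenced replicate 1 fell among the controls, and the change of -0.66 was not called (SE 0.29, limma adjusted p 0.129). Over 21 alternatives that change ran from -0.85 to -0.33, and it was -0.40 without silenced replicate 4. It was called under 1 of them, the shift to the 75th percentile (-0.76, limma adjusted p 0.0337).

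Rrn3 links the polymerase to growth signals. Its probe (chromosome 16, 13814761 to 13814820) read 12.46, 12.52, 12.68 and 12.49 in controls and 12.28, 11.71, 12.26 and 11.94 after silencing. All silenced values were below the controls, by a small margin in replicates 1 and 3. The change of -0.49 (SE 0.20) missed the threshold (limma adjusted p 0.110), while an exact permutation test (two-sided) gave p 0.0286, the lower limit of a design with 4 against 4 arrays.

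Ttf1, the termination factor, had 1 probe spanning an exon junction (chromosome 2, 28930315 to 28934954). It read 7.23, 7.76, 7.92 and 7.82 in controls and 7.06, 6.61, 7.10 and 5.83 in silenced replicates. The groups were separate by a narrow margin, and replicate 4, which was not above background for this probe, was the lowest. The change was -1.03 (SE 0.31, limma adjusted p 0.0385), and the call was lost under 8 of 21 alternatives. Over the 21 the change ran from -1.18 to -0.56, the smallest with normexp.

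**Figure D2:**
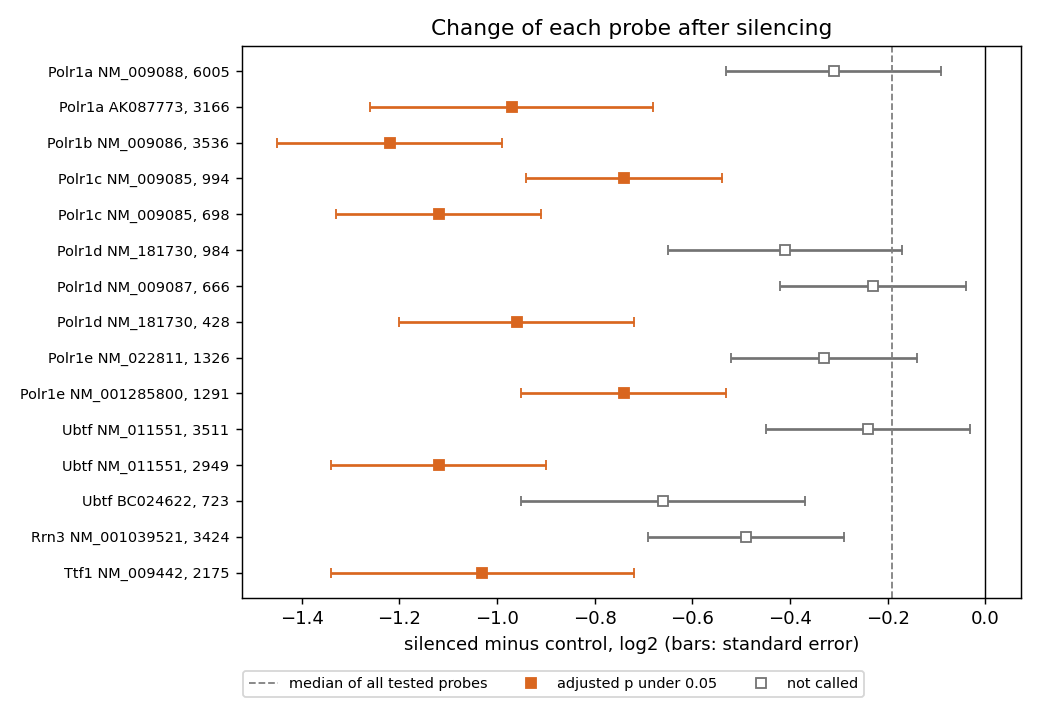
Difference between silenced and control means on the log2 scale (horizontal axis, bars are standard errors) for the 15 probes named by gene, transcript and position. The 8 filled squares passed a limma adjusted p under 0.05, all 15 squares lie left of 0, and the dashed line at -0.19 is the median of all tested probes.

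The genes with more than 1 tested probe allowed positions within a gene to be compared. Between the tested probes nearest to the 5′ and the 3′ end of each gene, the 5′ probe fell more by 0.67 in Polr1a, 0.38 in Polr1c, 0.41 in Polr1e and 0.42 in Ubtf (log2), and in Polr1d, where these probes lie on different variants, it fell less by 0.18. In Ubtf the 5′ probe here is that of the clone with an apparent retained intron, and the 3′ probe opens with the TG repeat. Over these 5 genes the exact two-sided permutation p adjusted for 5 comparisons lay between 0.0715 and 0.314.

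Polr1c, Polr1d, Polr1e and Ubtf also had probes that the array files list on a common RefSeq transcript and that lie 200 to 1000 bases apart on the genome, a set chosen after the values were seen. The 5′ probe fell more in 4 of 4. For Ubtf the 5′ minus 3′ difference was -3.44, -3.38, -3.41 and -3.19 in controls and -4.28, -4.02, -4.53 and -4.12 in silenced cells, a shift of -0.88 with no overlap. The 3′ probe of this Ubtf pair is the probe that opens with the TG repeat. The part of the repeat in this shift was not tested. For Polr1e the 5′ minus 3′ difference was -0.19, -0.20, -0.03 and -0.18 against -0.63, -0.34, -0.61 and -0.65, a shift of -0.41, again with no overlap. In Polr1d the difference moved from -2.54 ± 0.19 to -3.10 ± 0.22 (SD, n = 4 each) and in Polr1c from -1.59 ± 0.17 to -1.97 ± 0.18 (SD, n = 4 each), and in both of these genes 1 control array lay within the silenced range.

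The exact two-sided permutation p was 0.0286 for Ubtf and Polr1e and 0.0571 for Polr1c and Polr1d, and each was 0.0571 after adjustment over the 4 pairs. Among all 1069 genes with such a pair of probes the 5′ probe fell more in 87.5%, by a median of 0.68, and the 4 of 4 are read against that share. The part of probe position in the size of each change above was not tested.

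**Figure D3:**
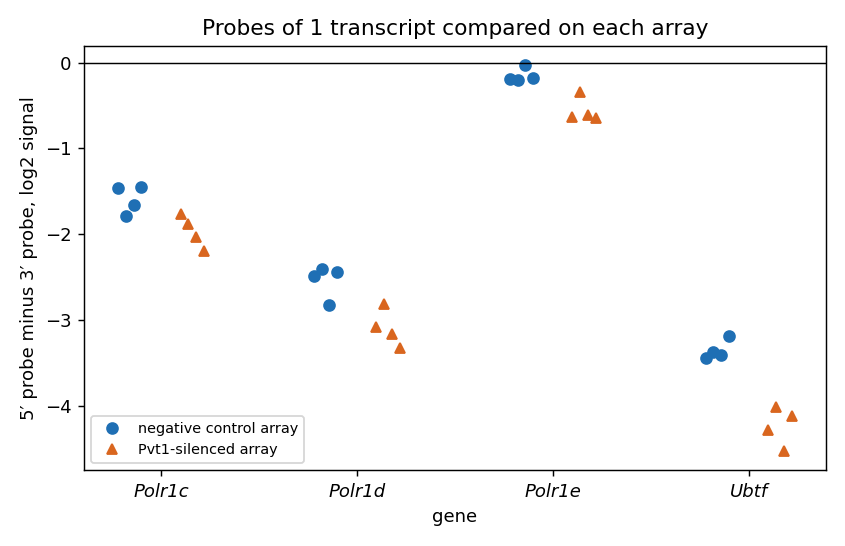
Signal of the 5′ probe minus that of the 3′ probe listed on the same RefSeq transcript (log2, vertical axis) on each control array (circles) and silenced array (triangles) for 4 genes. The silenced mean lies lower in each gene, with 1 control array inside the silenced range in Polr1c and in Polr1d, and the shifts are -0.38 in Polr1c, -0.56 in Polr1d, -0.41 in Polr1e and -0.88 in Ubtf. The 3′ probe of Ubtf is the probe that opens with the TG repeat.

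Further genes of the Pol I machinery were read in the same way. By the brightest probe 2 of 9 further subunits and factors were lower and 0 higher, beside the 14.0% and 5.99% of all gene names, with a median change of -0.33. These were Taf1c, a subunit of SL1 (9.42 ± 0.35 to 8.12 ± 0.41, SD, n = 4 each, change -1.30, limma adjusted p 0.00820), and Cd3eap, a Pol I subunit now called Polr1g (11.63 ± 0.20 to 10.91 ± 0.32, SD, n = 4 each, change -0.73, limma adjusted p 0.0410). A dimmer Cd3eap probe of the same transcript changed by -0.10 and was not called (limma adjusted p 0.831). Taf1b, another SL1 subunit, had the only positive change among the brightest probes of the 9, 0.22, and was not called (limma adjusted p 0.621), and its dimmer probes changed by -1.07 (limma adjusted p 0.0763) and 0.22 (limma adjusted p 0.654). Tbp, the TATA-binding protein that SL1 contains, was not called by its brightest probe (-0.33, limma adjusted p 0.406), while its dimmer probes were lower by 1.59 (limma adjusted p 0.00153) and 0.94 (limma adjusted p 0.0194). Over all their probes, 4 of 18 were lower and 0 higher, beside 18.4% and 4.79% of all tested probes. Of the 5 subunits common to Pol I, Pol II and Pol III, 0 were called by limma or the methods' t-test through the brightest probe, and 0 had an unadjusted p under 0.05 in either. Their changes ran from -0.34 (Polr2e) to 0.29 (Polr2l). A dimmer Polr2e probe was lower by 0.84 (limma adjusted p 0.0181).

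The other polymerases showed calls as well, to be read against the same 14.0% lower and 5.99% higher gene names and, for probes, 18.4% and 4.79%. Of 7 Pol II subunits 2 were lower and 0 higher by the brightest probe, Polr2a, the largest subunit (change -1.10, limma adjusted p 0.00425), and Polr2b (change -0.82, limma adjusted p 0.0135), and the median change of the 7 was -0.16. By probe 5 of 13 were lower and 0 higher, among them a dimmer Polr2a probe (-2.73, limma adjusted p 0.000743) and dimmer Polr2c probes (-1.13 and -0.60). Of 22 Pol III subunits and factors 5 were lower, the catalytic subunits Polr3a (-1.25) and Polr3b (-1.11), Polr3d (-1.36), and the initiation factors Brf1 (-1.12) and Brf2 (-1.01), at limma adjusted p between 0.00295 and 0.0161. Polr3gl was higher (0.86, limma adjusted p 0.0380). Dimmer probes of Polr3a (-0.25), Polr3b (-0.29), Polr3d (0.31), Brf1 (-0.54) and Polr3gl (-0.39) were not called. Dimmer probes of Gtf3c2 (-2.29), Polr3e (-1.21), Bdp1 (-1.12), Polr3c (limma adjusted p 0.0199) and Crcp (-0.89) were called lower, and 1 of Gtf3c1, not well above background in controls, was at least 1.79-fold higher in silenced cells (limma adjusted p 0.0240). By probe 10 of 42 were lower and 2 higher. The median change over the 22 genes was -0.40, close to the -0.45 of the 8 Pol I genes, and no test was made of a difference between the lists.

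Known regulators of ribosomal RNA genes had calls in both directions. Of 15 measured by the brightest probe, 3 were lower and 1 higher, beside the 14.0% and 5.99% of gene names, and of their 34 tested probes 13 were lower and 1 higher, beside 18.4% and 4.79% of probes. The lower genes were Ncl (nucleolin, change -0.95, limma adjusted p 0.00670), the histone demethylase Kdm2a (-0.71, limma adjusted p 0.0362) and Rasl11a (-1.76, limma adjusted p 0.0142). Dimmer probes called lower included those of Tcof1 (-1.16, limma adjusted p 0.00948), Ncl (-1.22), Npm1 (-0.60), Smarca5 (-1.18), Sirt7 (-1.40 and -0.95), Kdm2a (-1.25, or at least 1.62-fold, since it was not well above background in silenced cells), Kdm2b (-1.78) and Mybbp1a (-1.47 and -0.99). Baz2a, which encodes the TIP5 subunit of the complex that silences ribosomal RNA genes, was higher (9.42 ± 0.21 to 10.95 ± 0.35, SD, n = 4 each, change 1.52, limma adjusted p 0.00226), and it was called under all 21 alternatives. Other Baz2a probes changed by -0.58 (limma adjusted p 0.0867) and -0.10 (limma adjusted p 0.873) and were not called. Myc was 11.78, 11.91, 9.15 and 12.03 in controls and 10.77, 11.17, 10.75 and 10.20 after silencing, so that control 3 lay below every silenced array and the change of -0.49 was not called (limma adjusted p 0.592). With control replicate 3 left out Myc was called lower (change -1.18, limma adjusted p 0.00973), as it was without that array and silenced replicate 4 together (-1.01, limma adjusted p 0.00338), and it was not called under the other 19 alternatives.

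The array also carried probes named for the products of Pol I. Rn18s, the 18S ribosomal RNA, read 13.74, 15.79, 11.15 and 15.20 in controls and 17.10, 17.77, 17.77 and 17.50 in silenced replicates. The controls were scattered, with control 3 lowest, and all lay below the silenced arrays (change 3.57, SE 0.84, limma adjusted p 0.0143). Rn28s1 rose from 8.73, 8.89, 8.50 and 8.23 to 11.72, 11.91, 13.08 and 10.28 (change 3.16, SE 0.49, limma adjusted p 0.00249). Over 21 alternatives the change was 2.63 to 4.17 for Rn18s and 2.72 to 3.65 for Rn28s1. The call was lost with the row of the slide as a block for Rn18s (limma adjusted p 0.0702), and by the methods' t-test for both. Whether these probe signals follow the amount of ribosomal RNA in the cells was not tested. The arrays give no measure of the rate of ribosomal RNA synthesis.

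The position of the arrays on the slide was compared as well. Row 1 held controls 1 to 3 and silenced replicate 1, and row 2 held control 4 and silenced replicates 2 to 4. Each row thus had 1 array in 1 of its arms, and the 15 probes share these arrays, so the values within a row are a description without a test. Within row 1 the 15 changes ran from -1.03 to -0.04 with a median of -0.57, beside a median of -0.03 and 51.8% negative changes over all tested probes. Within row 2 they ran from -1.38 to -0.21 with a median of -0.73, beside a median of -0.32 and 67.3% negative changes. With the row entered as a block, 3 of 15 probes were called lower, where 8.98% of all probes were.

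Across 21 alternatives none of the 15 probes changed sign. The probes of Polr1b (-1.31 to -0.95), Polr1c at position 698 (-1.19 to -0.93) and Ubtf at position 2949 (-1.28 to -0.94) were called lower under all 21. The others that were called lost their call under 4 (Polr1d) to 11 (Polr1a) of them. Cyclic loess moved the median of all probes from -0.19 to 0.02 and the median of the 15 probes from -0.74 to -0.51, and 8 of the 15 were still lower and 0 higher, beside 18.4% lower and 18.9% higher among all probes under that scaling.

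**Figure D4:**
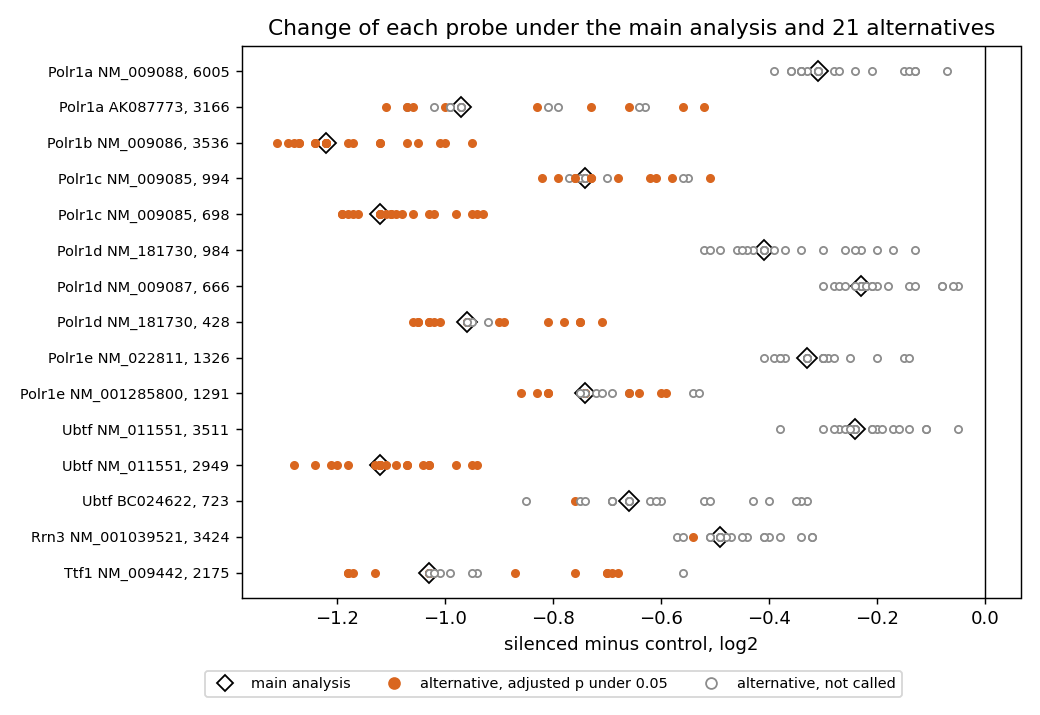
Change of each of the 15 probes (silenced minus control, log2, horizontal axis) in the main analysis (diamonds) and under 21 alternatives (circles, filled where limma or the methods' t-test gave an adjusted p under 0.05). No value lies right of 0, and 3 probes keep filled circles throughout.

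The genes whose pattern over the 8 arrays was nearest to the mean pattern of the brightest Pol I probes were Gm6524, a lincRNA probe on chromosome 17, Atp6v1h (a proton pump subunit), Hmox1 (heme oxygenase) and Cse1l (a nuclear export receptor). Their root mean square distance from that pattern, after centring each gene on its own mean, was 0.055 to 0.061 log2 units among 13009 candidates. Their changes were -0.53, -0.52, -0.65, -0.58 and -0.66 in that order.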

How the data were processed

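The deposited scanner files held spot intensity on a linear scale, background-subtracted and detrended by Feature Extraction 12.0.0.7 per the file headers, whereas the submitters' processing notes name version 10.7.3.1. A further series table of normalized intensity, also deposited by the authors, was used as an alternative. Flags for signal above background (other units, 0 or 1) came from the deposited files too.

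Following the study's methods, spots not positive and significant were set to missing, log2 of the intensities the authors deposited was quantile normalized, and spots of a probe were averaged. Control spots and outlying spots were left out. Probes with at least 3 of 4 values per group were fitted with limma 3.58.1 in R 4.3.3, group being the single term, and p-values were adjusted by Benjamini-Hochberg over 28649 probes at 0.05. The brightest probe had the highest mean over 8 arrays. All arrays lay on 1 slide read in 1 scan. Single comparisons used the exact two-sided permutation test.

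The genes and lists were chosen with earlier results of these data known. Genes named outside the 8 were Pvt1, Myc, the called and most changed genes of each list, and the 5 nearest patterns; Tbp and the markers at background were added after their values were seen. The methods' t-test is the two-tailed test with unequal variance that the study states for these arrays, and its Benjamini-Hochberg adjustment was chosen here. On simulated data (28649 probes, 200 changed) the fit recovered 57.0% of changes of 2 log2 and 8.00% of changes of 1 log2, with 3 unchanged probes among 68 calls. In the data 18.4% of probes were called lower and 4.79% higher, a far larger share than was changed in the simulation. The recovery rates therefore do not give the sensitivity of the fit to the data. Alternatives were another scaling (a shift to the 75th percentile, normexp at offset 50, cyclic loess, the authors' table), other filters, probe GC content, the replicate number or slide row as a block, a robust trended prior, the methods' t-test, other probes of a gene and leaving out arrays. Leaving out control 3 with silenced 4, differences within slide rows and pairs of 1 transcript were added after the data were seen. Exon and UTR positions of the probes were not analysed here. Figures were drawn with matplotlib 3.10.9.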

Additional observations from a re-analysis of the deposited data

Results flagged for a closer look

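Among 30 groups of 4 values checked, chance alone places a sample apart in about 1 group of 20. In 1 group a sample stood apart: at the Polr1d probe at position 428 of variant 2, silenced replicate 4 read 9.75 while the other silenced arrays read 10.43 to 10.54. That array was also the dimmest, and without it the probe was still called lower.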

How the results depend on the processing

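Of 15 member probes, 8 were lower. That count was 5 of 17 with no masking of dim spots, 3 of 15 with slide row blocked and 4 of 15 by the methods' t-test, where the share lower among all probes was 8.46%, 8.98% and 9.96%, against 18.4%. Leaving out arrays gave 3 to 8, with 3 without control replicate 2 or control replicate 4 and 5 without control replicate 3. Scaling, GC content, stricter filters and a robust prior gave 7 to 9 of 15, where 18.0% to 24.4% of all probes were lower, and the authors' table gave 6 of 17, where 9.75% were, and none turned a sign or gave a higher member probe. By the brightest probe, 3 member genes were lower, against 1 with slide row blocked, 1 by the methods' t-test and 1 to 3 without an array. The same-numbered samples did not pair: the correlations of their deviations were -0.04, 0.19, 0.22 and 0.06, and 2 of 4 matched best with their own number. With the replicate number as a block, 4 member probes, 1 member gene, 1 Pol II subunit and 0 higher Pol III genes were called, and 13.9% of all probes were lower and 3.57% higher.

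Of 14 other or shared Pol I genes, 2 were lower and 0 higher. The lower count was 1 with the GC correction, blocking slide row, the methods' t-test or the probe nearest the 3′ end, and 1 to 2 without an array. The higher count was 1 with cyclic loess, 2 in the authors' table and 1 without masking. Of 22 Pol III genes, 5 were lower and 1 higher. The lower count was 8 with normexp, 10 with only spots well above background, 8 with a robust trended prior and 1 with slide row blocked. The higher count was 2 with the shift to the 75th percentile or normexp, 3 with cyclic loess, the authors' table or no masking, 0 with slide row blocked, the methods' t-test or the mean of all probes, and 0 to 3 without an array. Lower Pol II subunits numbered 2, and 1 with slide row blocked. They numbered 3 with the probe nearest the 3′ end or without control replicate 3 and silenced replicate 4 together. Fewer arrays or degrees of freedom enter the fits that leave out an array or add a block. The cause of the shifts was not tested in any of the fits. Signal over background limited Polr1a (dim probe) and Ttf1, each above it on 3 of 4 silenced arrays.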
